A study of Ovis aries with 6 samples.

Results

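The genes described here are 10 receptors, co-receptors and SMAD proteins of bone morphogenetic protein (BMP), activin and TGF-beta signalling: BMPR1B, BMPR1A, BMPR2, ACVR2A, TGFBR3, SMAD1, SMAD5, SMAD3, SMAD4 and SMAD7. They were found by gene name in the deposited tables, and all 10 were present among 26067 features, of which 21457 carried a name. Full-length cDNA was sequenced on an Oxford Nanopore instrument from 6 samples labelled hypothalamus, the brain region that governs the pituitary. The HP group (high reproduction) held 3 samples from healthy small-tailed Han sheep, and the LP group (low reproduction) held 3 samples from healthy Wadi sheep. The sheep were all of like body composition. Reproductive class and breed are one and the same split and cannot be told apart, and neither age, sex, stage of the oestrous cycle nor genotype at any locus is given in the labels used here. Samples were tied to table columns through the number alone, since the letter of a column differs from that of the title, and every statement about HP or LP rests on that match.

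In this pathway a dimeric ligand brings together type I and type II receptor kinases, and the type II receptor switches on the type I receptor, which phosphorylates a receptor SMAD. BMP receptors act mainly through SMAD1 and SMAD5, and activin and TGF-beta receptors through SMAD2 and SMAD3. SMAD4 is the partner shared by both branches, and SMAD7 is an inhibitor that the pathway itself induces. BMPR1B is known in sheep as the site of the Booroola fecundity allele, which raises ovulation rate through the ovary and which small-tailed Han sheep are known to carry. In the pituitary, activins raise and inhibins lower the synthesis of follicle-stimulating hormone, and TGFBR3 (betaglycan) serves as a co-receptor for inhibin.

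The libraries held between 1981644 and 2732911 estimated counts, and CPM below are counts scaled to a common library size. A count of 0 still allows 3 counts, or 1.10 to 1.51 CPM. Such limits and the intervals on counts below cover counting error only, as amplified reads are not independent molecules. The tissue label was checked against its markers. Of 18 hypothalamus markers, 16 were in the tables, with a summed level of 1.46 to 4.16 CPM in HP libraries against 119 to 399 CPM in LP libraries. The 1 of them that was tested, POMC, which also stands in the pituitary list, was higher in LP. GNRH1, KISS1, NKX2-1 and RAX had no count in any library, OXT, AVP and SIM1 had none in HP, and the largest count of these last 3 genes in an LP library was 7. CRH and CARTPT went the other way, with counts in HP and none in LP. Of the 16 genes, 10 had no count in HP and 7 had none in LP. Of 15 anterior pituitary markers, 11 were tested and all 11 were higher in LP, with a summed level of 49.0 to 142 CPM in HP libraries against 47179 to 299931 CPM in LP libraries. TSHB, POU1F1, PITX1, TBX19 and LHX3 were at 0 in HP. Of 14 markers of cerebellar granule and Purkinje cells, 13 were tested and all 13 were higher in HP, with 4915 to 5281 CPM in HP libraries against 107 to 154 CPM in LP libraries, where EN2 and BARHL1 were at 0. Astrocyte markers summed to 6267 to 7965 CPM in HP libraries, against 203, 178 and 10801 CPM in LP replicates 1, 2 and 3. Mural cell and fibroblast markers summed to 171 to 420 CPM in HP libraries, against 8497, 250.5 and 1331 CPM in LP replicates 1, 2 and 3. The marker lists thus did not bear out the hypothalamus label in either group. The pituitary list was far higher in LP libraries and the cerebellar list in HP libraries, so the groups differed in these markers as well as in breed. The part of this make-up in the results below was not tested, and in such bulk samples fewer cells of a type and less RNA per cell cannot be told apart.

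SMAD3 was higher in HP, the co-receptor TGFBR3 was higher in LP, and the other 7 tested genes did not pass in the TMM-scaled counts. HP was compared with LP over 13078 genes with enough counts by the quasi-likelihood test of edgeR, at a Benjamini-Hochberg threshold of 0.05. SMAD7 fell below the count filter, so 9 of the 10 genes were tested, and 2 passed, SMAD3 higher in HP and TGFBR3 higher in LP. Over all genes tested, 51.2% passed, 27.1% higher in HP and 24.1% higher in LP. The median log2 fold change, HP minus LP, was 0.08 over the 9 genes and 0.02 over all genes. HP and LP levels did not overlap in 3 of the 9, with HP above for SMAD1 and SMAD3 and LP above for TGFBR3. Of all genes tested, 62.9% did not overlap, 33.9% with HP above and 29% with LP above. The direction of calls depended on the scaling: 52.9% of all calls were higher in HP with the TMM factors used here, 63.0% with library totals alone and 36.2% with the deposited TPM, where the median log2 fold change of all genes was 0.02, 0.27 and -0.31.

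**Figure D1:**
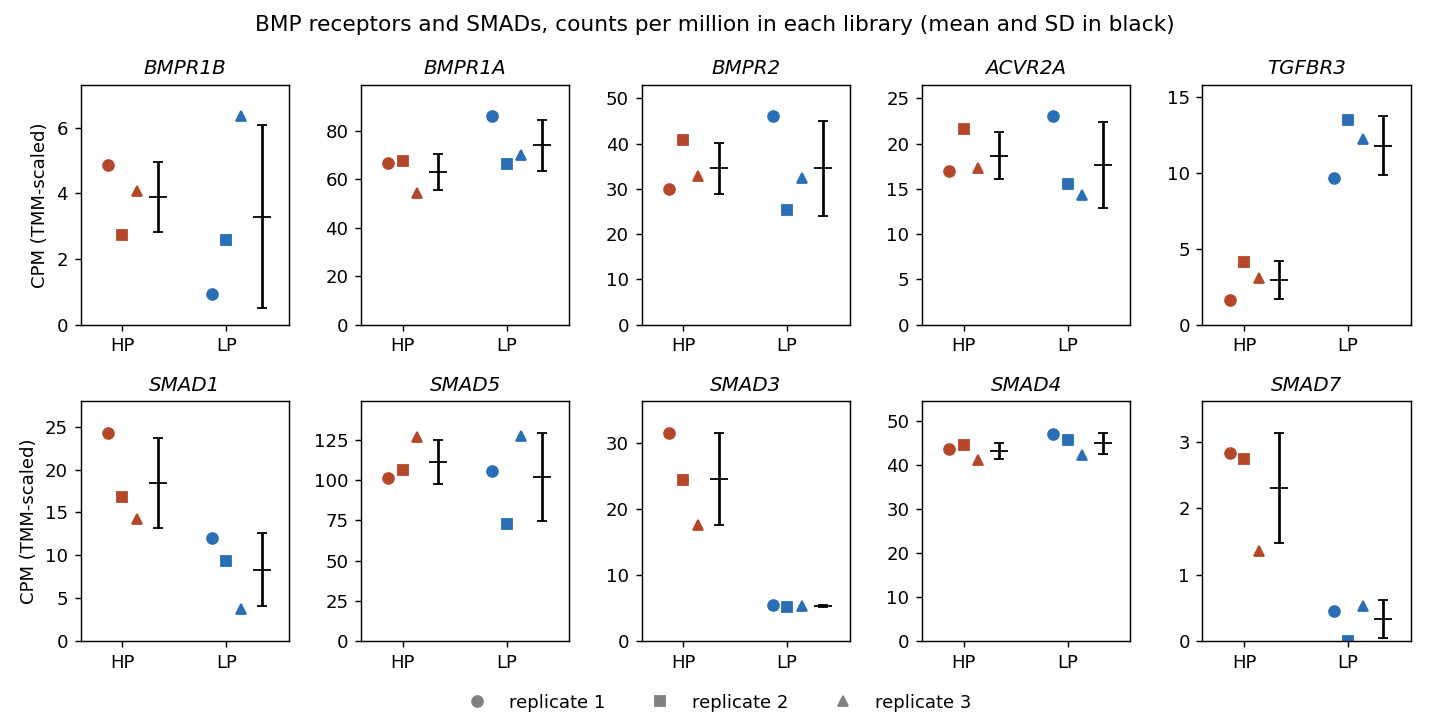
Level of each receptor and SMAD gene in every library, in CPM after TMM scaling (vertical axis, each panel on its own scale from 0), with HP libraries left in red, LP libraries right in blue, marker shapes for the replicates, and the mean ± SD of each group (n = 3) in black. SMAD3 and TGFBR3 separate the groups in opposite directions, SMAD4 sits between 41.1 and 47.0 CPM in all 6 libraries, and BMPR1B spreads from 0.921 to 6.35 CPM among the LP libraries.

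BMPR1B, a type I receptor for BMPs and the gene of the fecundity locus, was rare in both breeds, with at most 12 counts in any library. It had 12, 8 and 12 counts in HP replicates 1, 2 and 3, against 2, 5 and 12 counts in LP replicates 1, 2 and 3. The highest library, at 6.35 CPM, and the lowest, at 0.921 CPM, were both LP libraries, and the HP values of 4.86, 2.75 and 4.07 CPM fell between them. The summed counts were 32 in HP (95% Poisson interval 21.9 to 45.2) and 19 in LP (95% Poisson interval 11.4 to 29.7). Mean levels were 3.89 ± 1.07 CPM in HP and 3.29 ± 2.78 CPM in LP (SD, n = 3 each), and the difference did not pass the test (log2 fold change 0.26, SE 0.63, adjusted p = 0.746 from edgeR quasi-likelihood with Benjamini-Hochberg). Its 95% interval ran from 0.433 to 3.31 as a ratio of HP over LP, so that even a difference of 3.31-fold in BMPR1B lay within the error at this depth. LP replicate 3, where BMPR1B was highest, had the highest sums among LP libraries of astrocyte (10801 CPM), oligodendrocyte (4289 CPM) and choroid plexus (7410 CPM) markers. The microglia, endothelium and cerebellar lists were also highest there among LP libraries, and the pituitary, neuron and hypothalamus lists were lowest. The part of any of these lists in the value was not tested. Without that library the log2 fold change was 1.11 (adjusted p = 0.159 again from edgeR with Benjamini-Hochberg, in a range of 0.159 to 0.895 over the libraries left out).

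The 5 named genes whose pattern over the 6 libraries was nearest to that of BMPR1B were SFXN5, SNX29, DSCAML1, MYO6 and FLRT3, by the root mean square difference of centred log2 levels over 6 libraries. That difference was 0.216 for SFXN5, a mitochondrial carrier gene, and 0.277 for FLRT3, an adhesion protein gene. SFXN5 had 29, 20 and 30 counts in HP and 7, 10 and 38 counts in LP. As it was picked for its nearness to BMPR1B, its low in LP replicate 1 and high in LP replicate 3 follow from that choice. In the deposited TPM SFXN5 stood at 119, 67.0 and 104 in HP and 25.2, 13.3 and 13.3 in LP. Those levels did not overlap, with HP above (log2 fold change 2.44, limma adjusted p = 0.00253). MYO6, which encodes a myosin motor, had 48, 45 and 43 counts in HP and 16, 22 and 44 counts in LP.

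The genes next to BMPR1B in the RefSeq sheep annotation had more reads. UNC5C, a netrin receptor gene on one side, had 1467, 1415 and 834 counts in HP and 296, 226 and 234 counts in LP, with no overlap in level. UNC5C was 3.61-fold higher in HP (adjusted p = 0.00286 from edgeR quasi-likelihood with Benjamini-Hochberg), as were 27.1% of all genes tested by a call in that direction. Cerebellar and neuronal markers were also higher in HP, and their part in the UNC5C value was not tested. PDLIM5, a cytoskeletal adaptor gene on the other side, had 70, 103 and 116 counts in HP and 357, 142 and 65 counts in LP. Its levels overlapped between the groups, and it was not called (log2 fold change -1.40, adjusted p = 0.0581, or 0.00323 without LP replicate 3, edgeR with Benjamini-Hochberg). Its log2 fold change was -0.65 without LP replicate 1. DESeq2 (adjusted p = 0.0265), upper-quartile factors (edgeR adjusted p = 0.0475) and TPM, where LP lay above HP without overlap (-2.30, limma adjusted p = 0.0166), did call PDLIM5.

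BMPR1A, the other type I receptor for BMPs among these genes, had overlapping counts in HP and LP. It had 165, 197 and 160 counts in HP, against 187, 128 and 132 counts in LP. At 62.9 ± 7.44 CPM in HP and 74.1 ± 10.5 CPM in LP (SD, n = 3 each) the groups overlapped, and the ratio of HP over LP had a 95% interval of 0.601 to 1.20 (adjusted p = 0.377 from edgeR quasi-likelihood with Benjamini-Hochberg). Counts of BMPR1B came to 7.27%, 4.06% and 7.50% of those of BMPR1A in HP replicates 1, 2 and 3, and to 1.07%, 3.91% and 9.09% in LP replicates 1, 2 and 3. This ratio, which no scaling between libraries can move, did not separate the groups (difference of mean log2 ratios 0.85, two-sided exact permutation p = 0.60). With 3 libraries against 3 the smallest p that this test allows is 0.10. In TPM the same ratio differed by -1.13, the other way (two-sided exact permutation p = 0.30).

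Neither type II receptor passed the test, and the counts of both overlapped between the breeds. BMPR2, which binds BMPs, had 74, 119 and 97 counts in HP and 100, 49 and 61 counts in LP, a mean of 34.6 ± 5.63 CPM in HP and 34.6 ± 10.5 CPM in LP (SD, n = 3 each). ACVR2A, a type II receptor for activins and some BMPs, had 42, 63 and 51 counts in HP and 50, 30 and 27 counts in LP, or 18.6 ± 2.58 CPM in HP and 17.6 ± 4.72 CPM in LP (SD, n = 3 each). Among the LP libraries, replicate 1 was the highest for both genes. The 95% interval of the ratio of HP over LP was 0.626 to 1.59 for BMPR2 and 0.657 to 1.70 for ACVR2A, with adjusted p = 0.998 and adjusted p = 0.837 from edgeR quasi-likelihood with Benjamini-Hochberg.

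TGFBR3 was the receptor with more counts in LP. It had 4, 12 and 9 counts in HP, against 21, 26 and 23 counts in LP. The HP levels of 1.62, 4.12 and 3.06 CPM all lay below the LP levels of 9.67, 13.5 and 12.2 CPM. The mean was 2.93 ± 1.25 CPM in HP and 11.8 ± 1.93 CPM in LP (SD, n = 3 each), 3.91-fold higher in LP (log2 fold change -1.97, SE 0.40, adjusted p = 0.00617 from edgeR quasi-likelihood with Benjamini-Hochberg). Anterior pituitary markers, at 142 CPM or less in HP libraries and 47179 CPM or more in LP libraries, were likewise higher in LP. Among LP replicates 1, 2 and 3 they summed to 142185, 299931 and 47179 CPM, a wider spread than that of TGFBR3. Calls with LP higher were also made for 5 of 7 tested microglia markers and 4 of 8 tested mural cell and fibroblast markers. The part of these lists in the result was not tested. The call was kept whichever library was left out, with log2 fold changes of -2.21 to -1.62, but the deposited TPM did not show it, as given below.

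**Figure D2:**
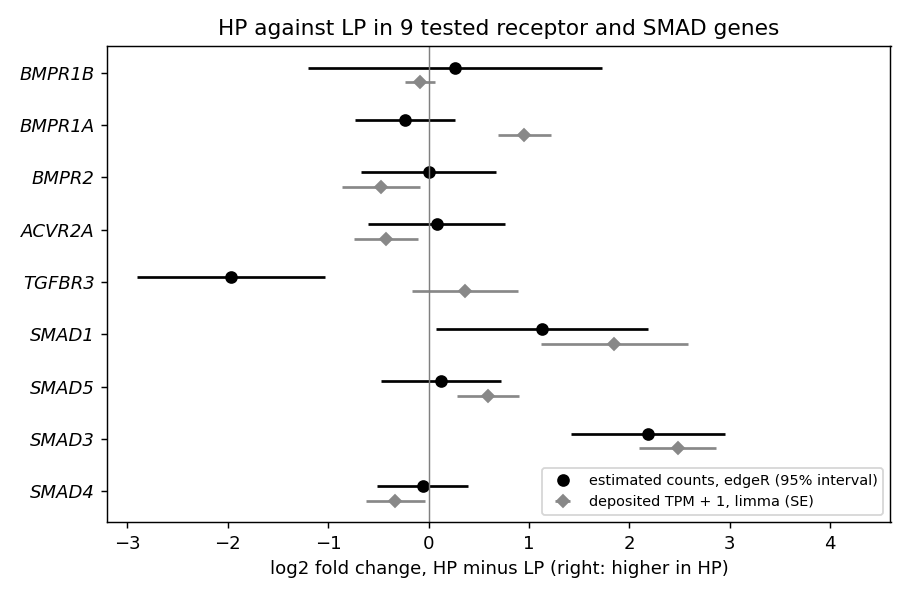
Log2 fold change, HP minus LP, of the 9 tested genes (horizontal axis), as black points with 95% intervals from edgeR on estimated counts and as grey diamonds with standard errors from limma on log2(TPM + 1). SMAD3 lies right of 0 in both units, TGFBR3, BMPR1A, BMPR1B and ACVR2A change side between them, and the interval of BMPR1B from counts is the widest.

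Among the SMADs that BMP receptors phosphorylate, neither SMAD5 nor SMAD1 passed the threshold, and SMAD1 did not overlap between the groups. SMAD5 had 250, 309 and 373 counts in HP and 229, 141 and 241 counts in LP. Its levels of 111 ± 13.5 CPM in HP and 102 ± 27.4 CPM in LP (SD, n = 3 each) overlapped, with a 95% interval of 0.722 to 1.65 for the ratio of HP over LP (adjusted p = 0.698 from edgeR quasi-likelihood with Benjamini-Hochberg). In TPM SMAD5 lay higher in HP without overlap but was not called (log2 fold change 0.59, limma adjusted p = 0.147). SMAD1 had 60, 49 and 42 counts in HP, against 26, 18 and 7 counts in LP. The SMAD1 levels did not overlap, at 24.3, 16.8 and 14.3 CPM in HP and 11.97, 9.33 and 3.71 CPM in LP, and the mean in HP was 2.19-fold that in LP by the fit (log2 fold change 1.13, SE 0.45, adjusted p = 0.0697 again from edgeR with Benjamini-Hochberg). LP replicate 3 held the fewest SMAD1 counts, and without it the log2 fold change was 0.75. The adjusted p of SMAD1 ranged from 0.0352 with library totals alone, the single alternative that called it, to 0.185 without HP replicate 1, from edgeR with Benjamini-Hochberg.

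Inside each library, SMAD1 counts came to 24.0%, 15.9% and 11.3% of SMAD5 counts in HP replicates 1, 2 and 3, and to 11.4%, 12.8% and 2.91% in LP replicates 1, 2 and 3. These shares overlapped, and their mean log2 ratios differed by 1.12 (two-sided exact permutation p = 0.30, smallest possible 0.10). In TPM the same shares did not overlap, at 84.8% to 92.1% in HP and 10.2% to 77.8% in LP, a difference of 1.47 (two-sided exact permutation p = 0.10).

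SMAD3, which carries activin and TGF-beta signals to the nucleus, differed most among the tested SMADs of this set. It had 78, 71 and 52 counts in HP, against 12, 10 and 10 counts in LP. The HP libraries ranged from 17.7 to 31.6 CPM, whereas the LP libraries lay together between 5.18 and 5.53 CPM. SMAD3 was 4.55-fold higher in HP, with a mean of 24.5 ± 6.96 CPM in HP and 5.33 ± 0.175 CPM in LP (SD, n = 3 each; log2 fold change 2.19, SE 0.33, adjusted p = 0.00212 from edgeR quasi-likelihood with Benjamini-Hochberg). Without any single library its log2 fold change stayed between 2.04 and 2.44, and the deposited TPM gave 2.48. Cerebellar and neuronal markers were likewise higher in HP. The neuron list summed to 5541 to 6027 CPM in HP libraries and 466 to 938 CPM in LP libraries, and the part of either list in the result was not tested.

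SMAD2, the partner of SMAD3 in the same branch but no member of the set of 10, ran the other way. It had 1, 3 and 1 counts in HP and 15, 18 and 18 counts in LP, with no overlap, and was 13.2-fold higher in LP (adjusted p = 0.00132 from edgeR quasi-likelihood with Benjamini-Hochberg).

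SMAD4, the common partner SMAD, had, relative to its level in CPM, the narrowest range of the 10 genes over the 6 libraries. It had 108, 130 and 121 counts in HP and 102, 88 and 80 counts in LP, or 43.1 ± 1.84 CPM in HP and 45.0 ± 2.37 CPM in LP (SD, n = 3 each). The ratio of HP over LP had a 95% interval of 0.701 to 1.31 (adjusted p = 0.811 from edgeR quasi-likelihood with Benjamini-Hochberg). SMAD7, which blocks type I receptors, had the lowest mean TPM of the set in both groups. It had 7, 8 and 4 counts in HP, against 1, 0 and 1 counts in LP, and every HP library held more than any LP library. The ratio of summed CPM by library totals without TMM factors, HP over LP, was 8.24 with a 95% counting interval of 1.99 to 73.0. When the count filter was dropped, SMAD7 passed with adjusted p = 0.0468 from edgeR quasi-likelihood with Benjamini-Hochberg, at a level where 33.2% of 22526 genes passed.

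The deposited TPM values gave another picture for some of these genes. On that scale, with limma on log2(TPM + 1), 51.2% of genes passed, 18.5% higher in HP and 32.6% higher in LP, and 2 of the 9 genes passed, SMAD3 and BMPR1A, both higher in HP. BMPR1A had 290, 278 and 194 TPM in HP, against 123, 134 and 130 TPM in LP, with no overlap (log2 fold change 0.95, limma adjusted p = 0.0220), although its counts overlapped. TGFBR3 had 9.47, 32.0 and 21.1 TPM in HP and 8.15, 16.0 and 22.0 TPM in LP, which overlapped (log2 fold change 0.36, limma adjusted p = 0.592), although its counts separated the groups.

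The counts behind each unit of TPM show where the units part. This ratio, unscaled CPM over TPM, had a median over tested genes of 3.29 to 4.03 in HP libraries and 1.87 to 2.49 in LP libraries, and the median over genes of HP over LP was 2.03. For TGFBR3 it was 0.181, 0.137 and 0.162 in HP and 1.13, 0.670 and 0.528 in LP, or 4.84-fold higher in LP, and 0.878% of tested genes had a lower value of HP over LP. BMPR1A likewise stood at 0.244, 0.260 and 0.312 in HP and 0.665, 0.396 and 0.513 in LP, 1.93-fold higher in LP, with 2.90% of genes lower. SMAD1 had a mean of 0.605 in HP and 1.12 in LP, with 3.10% of genes lower, and its LP libraries ran from 0.340 to 1.98. For SMAD5 and SMAD3 the value of HP over LP was 0.794 and 0.883, with 6.02% and 7.15% of genes lower. BMPR2, ACVR2A, SMAD4 and BMPR1B, by comparison, had a ratio 1.45 to 2.08 times as high in HP as in LP. How the authors' TPM treats transcript length and isoforms is not given in the sources used here, so which unit is nearer to the transcript number of BMPR1A and TGFBR3 was not tested.

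**Figure D3:**
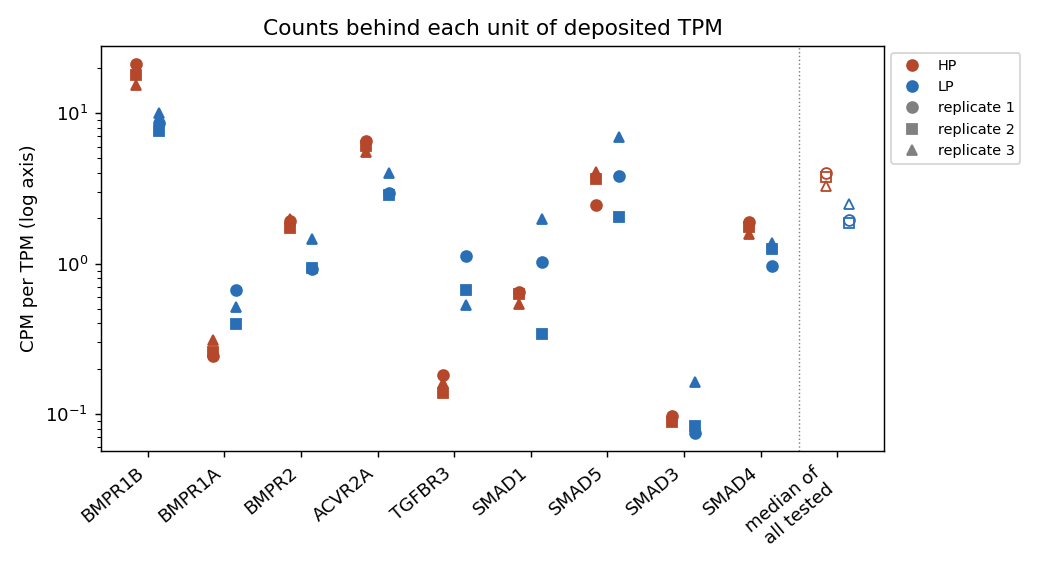
Counts per unit of deposited TPM (vertical log axis, unscaled CPM divided by TPM) for the 9 tested genes in every library, HP left in red and LP right in blue, with the median over all tested genes as open symbols on the right. The all-gene median is higher in HP, as are BMPR1B, BMPR2, ACVR2A and SMAD4, whereas TGFBR3 and BMPR1A are lower in every HP library than in any LP library.

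The order of levels between genes was read from TPM, the only unit here that may correct for length. In HP, SMAD3 (279 ± 72.2 TPM) and BMPR1A (254 ± 52.2 TPM) were the highest and overlapped each other (SD, n = 3 each). A middle group of SMAD5, SMAD1, SMAD4, TGFBR3 and BMPR2, from 36.4 down to 20.2 TPM, followed with overlap between each pair of neighbours. ACVR2A (3.37 ± 0.536 TPM), BMPR1B (0.234 ± 0.0665 TPM) and SMAD7 (0.108 ± 0.0296 TPM) came below, each apart from its neighbours (SD, n = 3 each). In LP, BMPR1A led at 129 ± 5.33 TPM (SD, n = 3) without overlap with SMAD3 (50.6 ± 20.1 TPM), and from SMAD3 to ACVR2A each gene overlapped the next. BMPR1B (0.327 ± 0.255 TPM) and SMAD7 (0.0396 ± 0.0343 TPM) were again last (SD, n = 3 each). The high TPM of SMAD3 rested on few reads, 52 to 78 counts in HP and 10 to 12 counts in LP. By CPM, which takes no account of length, SMAD3 ranked lower. Its mean of 24.5 CPM in HP lay below SMAD5 (111 CPM), BMPR1A (62.9 CPM), SMAD4 (43.1 CPM) and BMPR2 (34.6 CPM). In LP its mean of 5.33 CPM lay above only BMPR1B (3.29 CPM) and SMAD7 (0.330 CPM). Which order is nearer to transcript number was not tested.

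In the deposited annotation, 9 of the 10 genes carried the KEGG term for TGF-beta signalling, the exception being TGFBR3. BMPR1A and BMPR1B shared a receptor ectodomain, a GS motif and a kinase domain, BMPR2 and ACVR2A had the ectodomain and kinase without the GS motif, and all 5 SMADs had both the MH1 and the MH2 domain. TGFBR3, which has no kinase, was listed with a zona pellucida domain. SMAD3 and SMAD4, which share both domains, had log2 fold changes of 2.19 and -0.06.

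The rest of the pathway was read from a list of 115 further genes in 6 roles, of which 109 were in the tables and 50 were tested. Calls were made for 9 genes with HP higher and for 13 with LP higher, with a median log2 fold change of -0.52. That is a share of 44.0% passing, against 51.2% of all genes. Leaving out LP replicate 3 raised the number passing to 37, and the range over libraries left out was 19 to 37. Over all genes the number passing rose as well without that library, from 6693 of 13078 to 7913 of 13908. Its range over libraries left out was 4794 to 7913. The count filter was applied anew without a library, so the listed genes tested need not be the same 50.

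Ligand genes were mostly too rare to test, with 6 of 30 tested, 0 called with HP higher and 2 with LP higher, or 33.3% called against 51.2% of all genes. BMP15 had no count in any library, and GDF9 had 3, 6 and 3 counts in HP and 3, 6 and 5 counts in LP; both are oocyte ligands tied to fecundity in sheep. BMP2, BMP4, BMP6, TGFB1 and TGFB2 had at most 22 counts in any library. INHBB, the activin B subunit, had 3, 4 and 8 counts in HP and 25, 54 and 10 counts in LP, 8.14-fold higher in LP (log2 fold change -3.02, adjusted p = 0.0101 from edgeR quasi-likelihood with Benjamini-Hochberg). Without LP replicate 2 it was -2.24, and it was no longer called once HP replicate 1 or 2 was left out (adjusted p = 0.0530 and 0.0529 again from edgeR with Benjamini-Hochberg). INHA, the inhibin alpha subunit, had 7, 5 and 16 counts in HP and 2, 3 and 7 counts in LP, and INHBA, an activin A subunit, had 3, 4 and 1 counts in HP and 24, 0 and 1 counts in LP; neither was tested. TGFB3 had 4, 4 and 11 counts in HP and 202, 16 and 19 counts in LP, with a log2 fold change of -4.01 that was -1.99 without LP replicate 1, the library high in fibroblast markers. Its adjusted p of 0.0186 became 0.0801 and 0.0776 without HP replicates 1 and 2, from edgeR with Benjamini-Hochberg, and TGFB3 was not called with TPM (limma adjusted p = 0.122) or limma-voom (adjusted p = 0.0754).

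The values of BMP7 and GDF10, BMP family ligands, depended on LP replicate 3. In that library oligodendrocyte markers summed to 4289 CPM and choroid plexus markers to 7410 CPM, against at most 71.8 and 44.2 CPM in the other LP libraries, and their part in these values was not tested. BMP7 had 8, 20 and 15 counts in HP and 1, 1 and 118 counts in LP, with a log2 fold change of -2.03 that was 3.23 without that library. GDF10 had 14, 32 and 59 counts in HP and 4, 1 and 25 counts in LP, with 1.25 in all libraries and 3.26 without LP replicate 3. Neither was called with all libraries, and both were called without LP replicate 3 (adjusted p = 0.00741 and 0.00928 from edgeR quasi-likelihood with Benjamini-Hochberg). GDF1 and GDF11, singled out after their values were seen, likewise changed sign, with log2 fold changes of 3.48 and 3.70 without LP replicate 3, against -1.78 and -0.57 with all 6 libraries.

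Among 8 other tested receptors and co-receptors, 2 calls had HP higher and 1 had LP higher, or 37.5% called against 51.2% of all genes. ACVR2B, the close relative of ACVR2A, had 75, 71 and 49 counts in HP and 17, 16 and 21 counts in LP, with a log2 fold change of 1.38. NEO1, a receptor for netrins and repulsive guidance molecules that also takes part in BMP signalling, had 117, 132 and 130 counts in HP and 42, 31 and 51 counts in LP, with 1.13. TGFBR2, the type II receptor for TGF-beta, had 12, 19 and 22 counts in HP and 122, 29 and 33 counts in LP, with -2.23, or -1.35 without LP replicate 1. Their adjusted p were 0.0116, 0.00987 and 0.0148 from edgeR quasi-likelihood with Benjamini-Hochberg, and that of TGFBR2 was 0.0698 and 0.0608 without HP replicates 1 and 2. With TPM neither ACVR2B (0.62, limma adjusted p = 0.0926) nor NEO1 (0.87, limma adjusted p = 0.0622) was called. TGFBR1 and ACVR1B, type I receptors of the same branch, and ACVR1, a type I receptor for BMPs, were not called, with log2 fold changes of -0.18, 0.45 and -0.74. Without LP replicate 3, ACVR1 was called at -1.08 (adjusted p = 0.0478, edgeR with Benjamini-Hochberg), and with TPM it was called at -1.11 (limma adjusted p = 0.0367). BAMBI, a pseudoreceptor that dampens the pathway, did not overlap between the groups, with 37, 55 and 60 counts in HP and 159, 64 and 42 counts in LP and LP above in CPM. It lay at the threshold (log2 fold change -1.25, adjusted p = 0.0514 again from edgeR with Benjamini-Hochberg). BAMBI was called higher in LP by DESeq2 (adjusted p = 0.0288), with TPM (limma adjusted p = 0.0347), with the stricter filter, with upper-quartile factors, with TMM factors that left out the most abundant genes and without LP replicate 3. Without LP replicate 1 its log2 fold change was -0.61.

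Of the remaining SMADs, SMAD9 was not called (log2 fold change -0.71, but -1.20 and called without LP replicate 2) and SMAD6, an inhibitor of the BMP branch, had 0, 0 and 0 counts in HP and 3, 0 and 2 counts in LP. Of 6 tested genes for secreted modulators, 1 was higher in HP and 2 higher in LP, or 3 of 6 called against 51.2% of all genes. TLL1, a protease that can free BMPs from chordin, had 1187, 1141 and 778 counts in HP and 176, 39 and 46 counts in LP, with a log2 fold change of 3.17, or 4.09 without LP replicate 1. TWSG1, which binds BMPs together with chordin, had 13, 27 and 24 counts in HP and 59, 52 and 93 counts in LP, with -2.17. DCN, a matrix proteoglycan that binds TGF-beta and is itself a fibroblast marker here, had 31, 85 and 68 counts in HP and 869, 168 and 954 counts in LP, with -3.93. The antagonist gene NOG had at most 2 counts and FST at most 5 in any library. SOST was not called, with 0, 1 and 13 counts in HP and 125, 1 and 21 counts in LP. Its log2 fold change of -3.78 ran from -6.54 without HP replicate 3 to -1.78 without LP replicate 1, with a call without LP replicate 2 or 3.

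**Figure D4:**
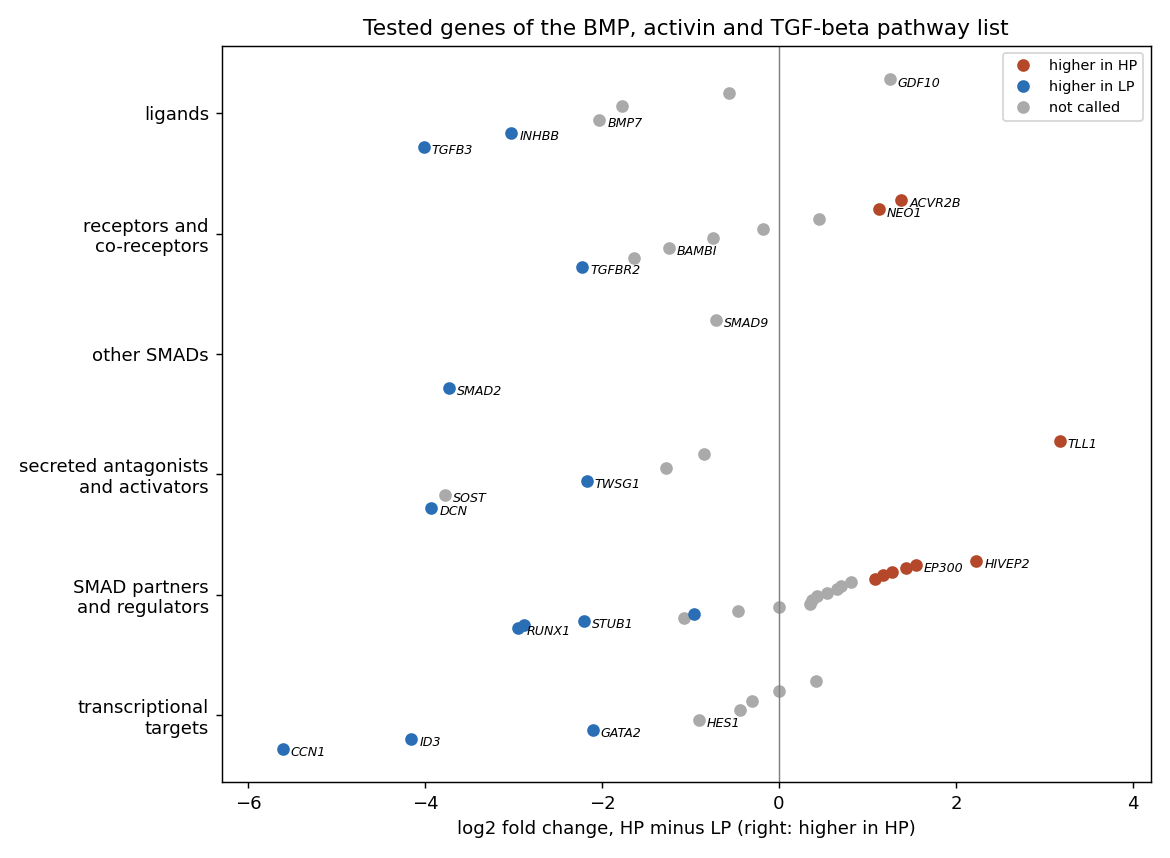
Log2 fold change, HP minus LP (horizontal axis), of the 50 tested genes of the pathway list by role, red where higher in HP, blue where higher in LP and grey where not called, with the up to 4 genes of smallest p in each role named. The 9 genes higher in HP are 2 receptors or co-receptors, 1 secreted modulator and 6 SMAD partners. The 13 genes higher in LP are 2 ligands, 1 receptor, 1 SMAD, 2 secreted modulators, 4 SMAD partners and 3 transcriptional targets. The share called is 44.0% of the list, against 51.2% of all genes.

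Of 20 tested SMAD partners and regulators, 6 were called with HP higher and 4 with LP higher, or 10 of 20 called against 51.2% of all genes. HIVEP2, a SMAD-binding transcription factor gene, had 384, 449 and 310 counts in HP and 88, 51 and 40 counts in LP, with a log2 fold change of 2.23, and EP300, a histone acetyltransferase that SMADs recruit, had 1.55. STUB1, a ubiquitin ligase gene, and RUNX1, a transcription factor gene, were higher in LP with -2.20 and -2.95. These 4 had adjusted p from 0.00135 to 0.00181 from edgeR quasi-likelihood with Benjamini-Hochberg.

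Among 8 tested transcriptional targets, 3 calls had LP higher, 0 had HP higher, and 5 genes were not called, a share called of 37.5% against 51.2% of all genes (24.1% with LP higher). HES1 was among those 5, at a log2 fold change of -0.91, and was called at -1.38 without LP replicate 3. The ID genes encode inhibitors of helix-loop-helix factors and are standard readouts of BMP signalling. ID3 had 19, 39 and 35 counts in HP and 776, 172 and 274 counts in LP, with a log2 fold change of -4.16, or -3.39 without LP replicate 1 (adjusted p = 0.00166 from edgeR quasi-likelihood with Benjamini-Hochberg). ID1 had 87, 202 and 186 counts in HP and 186, 166 and 105 counts in LP, and ID1, ID2 and ID4 were not called, with log2 fold changes of -0.44, 0.42 and -0.0036. GATA2, which is also a pituitary transcription factor, had 12, 17 and 11 counts in HP and 54, 57 and 15 counts in LP, with -2.10, and it was no longer called when HP replicate 1 or 3 was dropped (adjusted p = 0.0585 and 0.0572 from edgeR with Benjamini-Hochberg). CCN1, a matricellular gene, was called with all libraries but not without LP replicate 1. It had 3, 22 and 24 counts in HP and 1770, 36 and 21 counts in LP. Its log2 fold change was -5.61, and -1.37 without that library (adjusted p = 0.0332 and 0.147 from edgeR with Benjamini-Hochberg), and without HP replicate 1, 2 or 3 its adjusted p was 0.117, 0.103 and 0.0926. CCN1 was not called with TPM (limma adjusted p = 0.119) or limma-voom (adjusted p = 0.209) either.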

How the data were processed

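Expression was measured by Nanopore sequencing of amplified full-length cDNA in 3 HP and 3 LP samples, per the labels' protocols. Reads were aligned with minimap2 2.17-r941, per the submitters' processing notes; the sources used here name no quantifier, genome build or annotation. Estimated counts, deposited unscaled, were rounded to whole numbers. TPM, as the authors deposited them, served as an alternative unit, as log2 values after adding 1 or 0.1. The 10 genes and all lists were chosen with earlier results of these data known.

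Genes passing filterByExpr were scaled with TMM factors and tested in R 4.3.3 with edgeR 4.0.16 (two-sided quasi-likelihood test, Benjamini-Hochberg adjustment over all 13078 genes, threshold 0.05). CPM are TMM-scaled, except in marker sums, the limits for absent counts, the ratio of summed SMAD7 CPM and the ratio to TPM, which use library totals. Differences are HP minus LP. The labels do not say whether replicates differ beyond being separate samples, so p-values measure the spread between these samples. DESeq2 1.42.0, limma 3.58.1 and other scalings and filters were tried. Named genes were the 10 genes, up to 4 of smallest p in each of 6 roles of the pathway list, a fixed set of 27 ligands, receptors, SMADs, antagonists and ID genes whatever their result, and for BMPR1B the 5 nearest patterns; its neighbours, read from the RefSeq table of ARS-UI_Ramb_v3.0 without coordinates, were added after the files had been seen. Genes of the lists that are not in the tables are not analysed here.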

Additional observations from a re-analysis of the deposited data

How the results depend on the processing

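BMPR1B, SMAD7 and TGFBR3 rested on at most 26 counts a library, and SMAD1 and SMAD3 on as few as 7 and 10, which limits their precision. No paired analysis was possible because the labels carry no replicate numbers that pair HP with LP samples. The stricter filter on low counts removed BMPR1B, so that it has no value there, and DESeq2 gave no adjusted p for BMP7 and CCN1.

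With the deposited TPM, 2 of the 9 tested genes of the set were called higher in HP and 0 higher in LP with either pseudocount. With library totals alone 2 were called higher in HP, against 4103 of 13078 over all genes. With no filter 2 were called higher in HP, against 4119 of 22526 over all genes. Over all 13078 genes, 2295 were higher in HP with TPM and a pseudocount of 0.1, and 2422 with a pseudocount of 1. Leaving out 1 library gave 2078 to 3779 higher in LP over all genes. In the pathway list, TPM gave 4 higher in HP with either pseudocount, and no filter gave 39 called, 28 of them higher in LP. More listed genes than the 50 of the main fit were tested without the filter, where 33.2% of all 22526 genes passed. Leaving out 1 library gave 19 to 37 called, 9 to 14 higher in HP and 10 to 23 higher in LP. Over all genes, leaving out 1 library gave 4794 to 7913 called.

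Signs turned as follows, as log2 fold changes, and the cause was not tested. With TPM and pseudocounts of 0.1 and 1, the values were 0.96 and 0.95 for BMPR1A, -0.19 and -0.088 for BMPR1B, -0.51 and -0.43 for ACVR2A, 0.38 and 0.36 for TGFBR3, -0.26 and -0.13 for ACVR1B, and -0.11 and -0.12 for ID2. ID4 was 0.018 with a pseudocount of 0.1, and the BMPR1B to BMPR1A ratio was -1.13 in TPM. With library totals alone BMPR2 was 0.22, SMAD4 0.19, ID4 0.19 and TGFBR1 0.074. With no filter these were 0.20, 0.14, 0.20 and 0.017. With limma-voom BMPR2 was 0.023, BMP7 0.74 and ID4 0.71, and with upper-quartile factors ACVR2A was -0.010.

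Leaving out 1 library gave -0.19 to 1.11 for BMPR1B, -0.21 to 0.27 for BMPR2, -0.086 to 0.33 for ACVR2A, -0.14 to 0.039 for SMAD4, -0.080 to 0.28 for SMAD5, -2.60 to 3.23 for BMP7, -0.011 to 0.76 for ID2, -0.57 to 0.75 for ID4 and -0.40 to 0.0075 for TGFBR1.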
